A study of Homo sapiens with 6 samples.

Results

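The genes described here are the members of 7 solute carrier families that move amino acids and related small molecules across membranes: SLC1, SLC3, SLC6, SLC7, SLC36, SLC38 and SLC43. Within these families the members were found by name, as every gene in the count table whose symbol is one of these family names followed by a number, and 51 of the 33451 genes listed met this rule. Expression was measured by mRNA sequencing in MDA-MB-453, an established human breast cancer cell line that expresses ERBB2. The cultures lasted 5 days and held 100 nM 25(OH)D, the main vitamin D metabolite of blood, or its solvent (alcohol) alone, in medium with fetal bovine serum, and the groups are called 25(OH)D and control. Each group had 3 libraries, all from this 1 cell line, and the labels do not say whether the libraries of a group came from separate cultures, so the p-values measure the spread between these libraries. Bulk RNA cannot tell less RNA per cell from fewer cells that express a gene.

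Amino acid carriers work in a few ways. Some use the sodium gradient to pull an amino acid into the cell against its concentration, some exchange 1 amino acid for another, and some only let amino acids flow down their own gradient. The SLC7 light chains do the transport in a pair with an SLC3 heavy chain, which takes the pair to the plasma membrane. Cancer cells are known to draw on several of these carriers for glutamine, leucine, arginine and cystine, and ATF4, a transcription factor made in larger amounts when amino acids run short, is known to raise the transcripts of many of them.

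The libraries held between 33268860 and 40928176 counts, and 18183 genes had enough counts to be tested with edgeR. The share of mitochondrial genes was 7.85% to 7.99% in control and 8.89% to 9.24% in 25(OH)D. The 7 markers of this cell line reported here (EPCAM, KRT8, KRT18, CDH1, FOXA1, GATA3 and ERBB2) were above 1 CPM, counts scaled to a common library size, in every library, with a summed level of 3430 to 3520 CPM in control and 3610 to 3660 CPM in 25(OH)D. KRT8 supplied the largest part of this sum, at 1640 to 1870 CPM, and 2 of the markers were lower in every 25(OH)D library than in any control library: GATA3, at 258.0 to 264.0 CPM in control and 147.0 to 154.0 CPM in 25(OH)D, and FOXA1, at 112.0 to 120.0 and 77.5 to 88.4 CPM. None of the 5 leukocyte, 2 endothelial and 3 basal epithelial markers listed reached 1 CPM in all libraries. Of 5 fibroblast markers, COL1A1 did, at 32.0 to 38.5 CPM, while COL1A2, DCN, LUM and THY1 were at 0.435 CPM or less. The summed fibroblast level was 36.4 to 39.0 CPM in control and 32.0 to 34.6 CPM in 25(OH)D, and its part in the results was not tested.

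Cells cultured with 25(OH)D held less RNA of some carriers of glutamate, cystine, neutral amino acids and arginine. Some other genes with the same substrates were not called or were higher. The lower carriers of neutral amino acids were SLC7A8 and SLC43A2. SLC1A7, a glutamate carrier, was 8.22-fold lower, SLC7A11, the cystine and glutamate exchanger xCT, was 4.26-fold lower, SLC7A8, the neutral amino acid exchanger LAT2, was 2.21-fold lower, and SLC7A1, the arginine and lysine carrier CAT1, was 1.87-fold lower. The largest rises among genes that passed the test were those of SLC1A3, a glutamate and aspartate carrier, at 1.81-fold, SLC36A1, the proton-coupled carrier PAT1, at 1.67-fold, and SLC6A8, the creatine carrier, at 1.50-fold. Of the 51 genes, 27 passed the low-count filter and were tested. At an adjusted p under 0.05 over all genes tested (edgeR quasi-likelihood test, Benjamini-Hochberg), 7 of the 27 were higher in 25(OH)D (25.9%, against 17.3% of all genes tested), 7 were lower (25.9%, against 16.5% of all genes tested) and 13 were not called. The ranges of control and 25(OH)D did not overlap for 21 of the 27 (77.8%, against 45.7% of all genes tested). The median log2 fold change was 0.04 over the 27 and -0.01 over all genes tested.

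Stricter limits on size, as the study used, were also applied. With a log2 fold change beyond 1 in either direction and an unadjusted p under 0.05, 3 of the 27 were lower (2.63% of all genes tested were) and 0 were higher (4.02% of all genes tested were). The 3 were SLC1A7, SLC7A11 and SLC7A8. DESeq2 and limma also found 0 of the 27 higher at the study's limits. At an unadjusted p under 0.05 alone, the edgeR test had 10 of the 27 higher (37.0%, against 21.3% of all genes tested) and 8 lower (29.6%, against 20.9%). Among the called genes the log2 fold changes ran from -3.04 for SLC1A7 to 0.86 for SLC1A3. By family, SLC7 had 3 lower and 0 higher of 6 tested, SLC43 had 2 lower of 2, SLC3 had 1 lower of 2, SLC1 had 3 higher and 1 lower of 5, SLC6 had 2 higher of 4, SLC36 had 1 higher of 2, and SLC38 had 1 higher of 6.

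**Figure D1:**
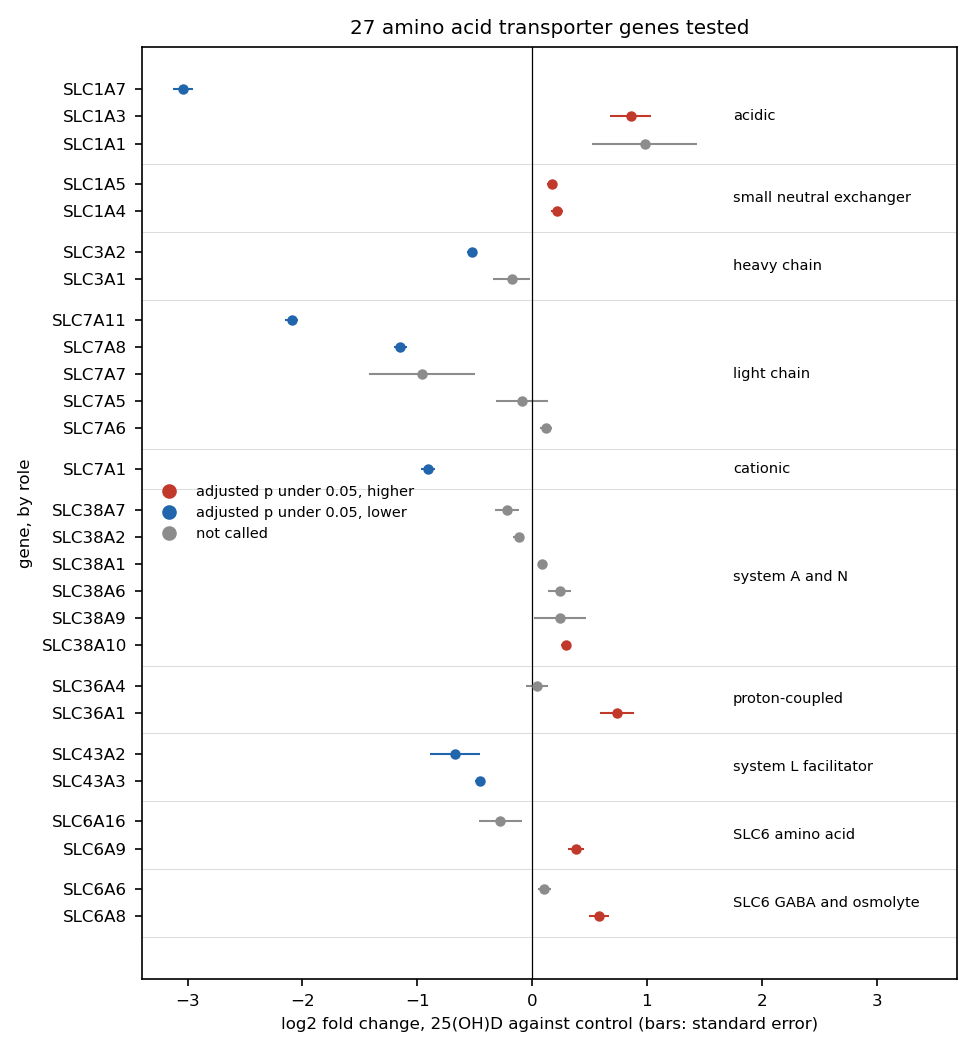
Log2 fold change (x axis, 25(OH)D against control, edgeR) of the 27 genes tested, listed by role on the y axis, with bars for the standard error and colour for the call at an adjusted p under 0.05. SLC1A7 at -3.04 and SLC7A11 at -2.09 lie farthest to the left, and no called gene reaches 1 to the right. SLC43A3 is placed under the label system L facilitator but is known to carry purine nucleobases and not amino acids.

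Letters of 4 DNA motifs were looked for, on both strands, in the promoter windows of RefSeq (GRCh38.p14, from 250 bases before to 50 bases after each transcription start), which hold 43 windows for 23 of the 27 genes tested and 35116 windows in all. SLC3A1, SLC43A3, SLC6A6 and SLC7A11 had no window. The C/EBP-ATF response element, TGATGNAA, to which ATF4 is known to bind, is shown because 16 of the 22 genes tested from a list of the ATF4 amino acid response, ATF4 itself among the 16, were lower in 25(OH)D (2 were higher and 4 not called). It was present in 6 of the 43 windows (14.0%, against 3.62% of all windows), each of a different gene. The genes were SLC1A3 (chr5:36596357-36596386), SLC1A4 (chr2:64989381-64989410), SLC1A5 (chr19:46784893-46784922), SLC38A1 (chr12:46266502-46266531), SLC3A2 (chr11:62881725-62881748) and SLC7A1 (chr13:29595663-29595692). SLC1A3, SLC1A4 and SLC3A2 lie on the plus strand and the others on the minus strand. The matching SLC1A3 window lies upstream of the span the count table gives for that gene. The matching windows of SLC1A4, SLC1A5, SLC38A1 and SLC3A2 lie inside the spans of these genes, away from the outermost start. Other windows of these genes held no match to this element. Only the SLC7A1 window covers the outermost start of its span. The stretches around the matches are written 5′ to 3′ on the strand of the gene, with the match in capitals (SLC1A4 and SLC3A2 carry it in reverse complement).
SLC1A3: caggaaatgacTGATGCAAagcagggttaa
SLC1A4: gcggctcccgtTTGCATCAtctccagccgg
SLC1A5: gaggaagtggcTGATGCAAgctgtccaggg
SLC38A1: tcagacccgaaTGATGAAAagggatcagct
SLC3A2: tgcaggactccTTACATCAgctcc
SLC7A1: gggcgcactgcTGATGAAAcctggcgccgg
Counted from the start that defines the window, the first base of the match was at -220 in SLC1A3, -7 in SLC1A4, -97 in SLC1A5, -4 in SLC38A1, 38 in SLC3A2 and 8 in SLC7A1. The 6 genes did not move one way: SLC1A3, SLC1A4 and SLC1A5 were higher, SLC3A2 and SLC7A1 were lower, and SLC38A1 was not called. The E-box CACGTG was in 8 of the 43 windows (18.6%, against 7.26% of all), and the antioxidant response element TGACNNNGC in 7 (16.3%, against 13.3%). The DR3 vitamin D response element was in 0 of the 43 windows and in 26 of all windows. A match of letters is not a measured binding site.

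Carriers of glutamate and aspartate moved in opposite directions. SLC1A7, a glutamate carrier known from the retina (chr1:53087179-53142632, GRCh38, minus strand), had 61.7, 64.9 and 62.9 CPM in control libraries 1, 2 and 3. In 25(OH)D libraries 1, 2 and 3 it had 8.85, 7.70 and 6.45 CPM, so each 25(OH)D library was far below each control library. The means were 63.2 ± 1.61 CPM and 7.66 ± 1.202 CPM (SD, n = 3), and the log2 fold change was -3.04 (SE 0.09, edgeR adjusted p = 4.65e-12). Ranked by RPKM, which also divides by gene length, SLC1A7 went from place 7 among the 27 genes in control to place 17 in 25(OH)D. The 250 bases before its RefSeq start (chr1:53142639-53142888, minus strand, GRCh38.p14) are shown because this gene changed most, with the E-box, at -60, in capitals.
SLC1A7: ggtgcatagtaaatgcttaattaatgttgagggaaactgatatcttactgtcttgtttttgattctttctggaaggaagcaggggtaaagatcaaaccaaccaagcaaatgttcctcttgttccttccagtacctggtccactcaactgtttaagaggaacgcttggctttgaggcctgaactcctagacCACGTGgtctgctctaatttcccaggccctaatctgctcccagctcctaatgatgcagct

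SLC1A3, the glutamate and aspartate carrier GLAST (chr5:36606355-36688334, plus strand), had 2.62, 3.07 and 2.17 CPM across control and 4.78, 5.51 and 3.93 CPM across 25(OH)D. The groups did not overlap, with means of 2.62 ± 0.447 and 4.74 ± 0.794 CPM (SD, n = 3). Its log2 fold change was 0.86 (SE 0.18, edgeR adjusted p = 0.00183), at a level far below that of SLC1A7 in control. SLC1A1, the glutamate, aspartate and cysteine carrier EAAC1, stood near the filter, at 0.373 ± 0.146 CPM in control and 0.752 ± 0.385 CPM in 25(OH)D (SD, n = 3). Its groups overlapped and it was not called (log2 fold change 0.98, edgeR adjusted p = 0.118). Summed over the 5 genes of this role, the level was 12.4 ± 0.34 RPKM in control and 2.34 ± 0.21 RPKM in 25(OH)D (SD, n = 3), and SLC1A7 made up most of the control sum.

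Both small neutral amino acid exchangers rose by small steps. SLC1A5, the glutamine exchanger ASCT2 (chr19:46774883-46788594, minus strand), had 243.9, 233.8 and 221.9 CPM in the control libraries. The 25(OH)D libraries had 263.8, 271.1 and 254.3 CPM, all above the highest control library. The means were 233.2 ± 11.02 and 263.1 ± 8.45 CPM (SD, n = 3), a log2 fold change of 0.17 (SE 0.04, edgeR adjusted p = 0.00619). By RPKM it ranked 1st of the 27 in both groups, at 71.0 in control, where its lowest library (67.2) was well above the highest library of the next gene (32.1). SLC1A4, the alanine, serine and cysteine exchanger ASCT1, was 1.16-fold higher, at 38.2 ± 1.09 and 44.4 ± 1.08 CPM (SD, n = 3), with no overlap (edgeR adjusted p = 0.00752). Neither call held when limma was run on log2 RPKM values with a pseudocount of 1 or 0.1, with adjusted p up to 0.0836 for SLC1A5 and 0.0567 for SLC1A4. The exons of SLC1A5 share 780 bases with CTB-147N14.6 on the other strand (adjusted p = 0.00211 and log2 fold change 0.27 in the same edgeR test), and whether counting used strand is not given in the sources used here, so reads of the 2 genes cannot be told apart there.

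**Figure D2:**
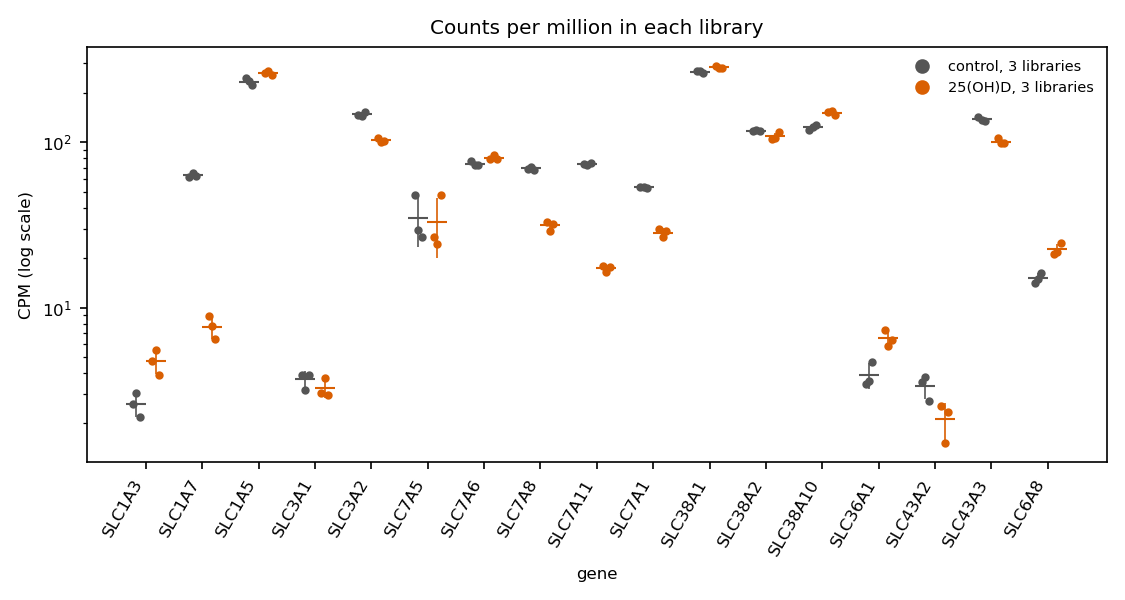
CPM on a log scale (y axis) of the 17 genes whose values are given per library (x axis, in the order of their roles), with 1 point per library, a dash for the mean and a bar for the SD of 3 libraries. SLC1A7, SLC7A11, SLC7A8 and SLC7A1 show the widest gaps between groups, and SLC7A5 has 1 high library in each group.

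The heavy chain of most light chain pairs fell. SLC3A2, the heavy chain 4F2hc or CD98 (chr11:62856102-62888875, plus strand), had 147.0, 144.0 and 152.7 CPM across control and 106.6, 99.8 and 102.4 CPM across 25(OH)D. The lowest control library was above the highest 25(OH)D library, and the means were 147.9 ± 4.41 and 103.0 ± 3.41 CPM (SD, n = 3). The log2 fold change was -0.52 (SE 0.04, edgeR adjusted p = 4.13e-07), a 1.44-fold fall. SLC3A1, the heavy chain rBAT of the cystine and dibasic amino acid exchanger (chr2:44275458-44321494, plus strand), was low, at 3.94, 3.20 and 3.94 CPM across control and 3.04, 3.75 and 2.98 CPM across 25(OH)D. Its groups overlapped, with means of 3.69 ± 0.427 and 3.26 ± 0.426 CPM (SD, n = 3), and it was not called (log2 fold change -0.18, SE 0.17, edgeR adjusted p = 0.448). Of its stretches of 100 transcript bases, 50.4% also occur in other genes, PREPL on the other strand above all, so its level is uncertain.

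Of the 5 light chains tested, 2 fell and 3 were not called. SLC7A11, the light chain xCT, which takes up cystine for the making of glutathione and releases glutamate (chr4:138164097-138242349, minus strand), had 74.5, 72.8 and 74.9 CPM in the control libraries. In the 25(OH)D libraries it had 18.0, 16.5 and 17.7 CPM, far below every control library. The means were 74.1 ± 1.14 and 17.4 ± 0.767 CPM (SD, n = 3), and the log2 fold change was -2.09 (SE 0.06, edgeR adjusted p = 2.13e-12). Its exons share 865 of 9645 bases with SLC7A11-AS1 on the other strand, a gene with a mean of 612.3 counts in control and 143.7 in 25(OH)D (log2 fold change -1.96), and reads of the 2 cannot be told apart there. SLC7A8, the light chain LAT2, which exchanges neutral amino acids (chr14:23125295-23183674, minus strand), shares no exon bases with another gene. It had 69.4, 71.3 and 68.0 CPM across control and 32.8, 29.3 and 32.2 CPM across 25(OH)D, again with no overlap. The means were 69.6 ± 1.70 and 31.4 ± 1.88 CPM (SD, n = 3), with a log2 fold change of -1.15 (SE 0.06, edgeR adjusted p = 1.77e-09).

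SLC7A5, the leucine exchanger LAT1 (chr16:87830023-87869488, minus strand), behaved in another way: it had 48.2, 29.6 and 26.7 CPM across control and 26.8, 24.2 and 47.8 CPM across 25(OH)D. Control library 1 and 25(OH)D library 3 were both high, and the other 4 libraries lay close together. The means were 34.8 ± 11.6 and 33.0 ± 13.0 CPM (SD, n = 3), and the gene was not called (log2 fold change -0.09, SE 0.23, edgeR adjusted p = 0.809). Without control library 1 its log2 fold change was 0.23 and without 25(OH)D library 3 it was -0.44, and without both it was -0.13 (adjusted p = 0.266), so no direction can be given for it. SLC7A6, y+LAT2, which exchanges cationic for neutral amino acids (chr16:68264516-68301823, plus strand), had 76.8, 73.1 and 73.2 CPM in control and 79.5, 84.2 and 79.1 CPM in 25(OH)D. Its groups did not overlap, with means of 74.4 ± 2.11 and 80.9 ± 2.85 CPM (SD, n = 3), but it was not called (log2 fold change 0.12, SE 0.05, edgeR adjusted p = 0.0686). Without 25(OH)D library 3 it was called (adjusted p = 0.0441), and its exons share 3371 of 7588 bases with SLC7A6OS on the other strand. SLC7A7, y+LAT1, was at 0.479 ± 0.163 CPM in control and 0.246 ± 0.0264 CPM in 25(OH)D (SD, n = 3) and was not called (edgeR adjusted p = 0.131).

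Because light chains need SLC3A2 at the membrane, the RNA of 4 of them was set against that of SLC3A2, as a ratio of RPKM values in each library. For SLC7A11 the ratio was 0.272, 0.271 and 0.263 in control and 0.0906, 0.0888 and 0.0925 in 25(OH)D, so it fell further than its heavy chain by 1.57 on the log2 scale. For SLC7A8 it was 0.408, 0.428 and 0.385 in control and 0.266, 0.254 and 0.271 in 25(OH)D. For SLC7A6 it went the other way, from 0.357, 0.346 and 0.327 to 0.509, 0.576 and 0.527. This rise came mostly from the fall of SLC3A2 (means of 28.97 and 19.56 RPKM), as SLC7A6 itself was at 9.94 and 10.5 RPKM. These 3 ratios did not overlap between the groups, and each gave p = 0.1 in a two-sided exact permutation test (0.133 after adjustment over the 4 ratios), the smallest p that 3 libraries against 3 allow. The ratio of SLC7A5 overlapped between the groups (exact permutation p = 0.4). In control the order of the ratios was SLC7A8, SLC7A6, SLC7A11 and SLC7A5 in libraries 2 and 3, and in all 3 libraries with 25(OH)D SLC7A6 was highest and SLC7A11 lowest.

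**Figure D3:**
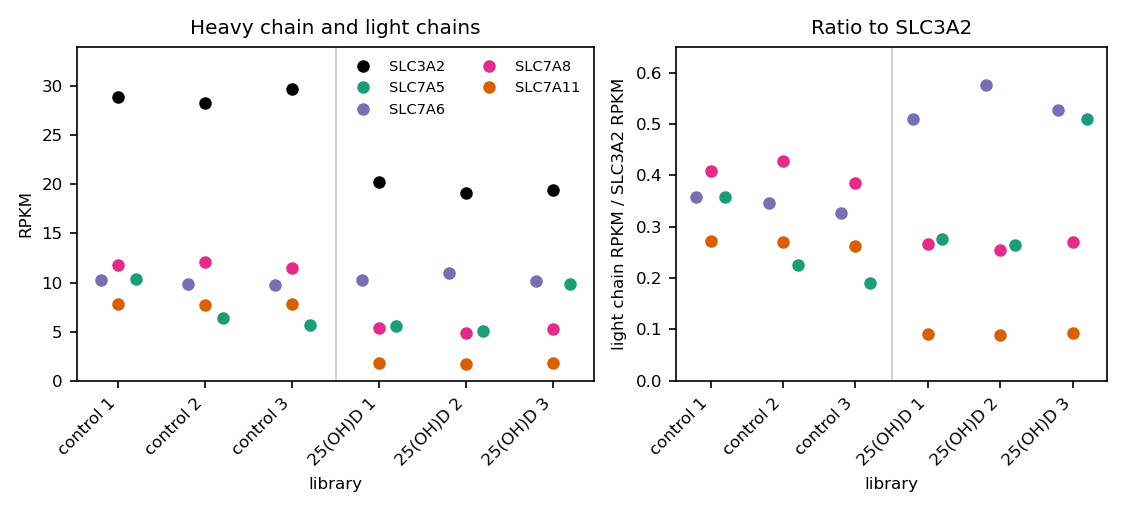
RPKM of SLC3A2 and 4 light chains (left) and the ratio of each light chain to SLC3A2 (right), with 1 point per gene and library on the x axis. The SLC7A11 ratio is between 0.263 and 0.272 in control and between 0.0888 and 0.0925 in 25(OH)D, and SLC7A5 is high in control 1 and 25(OH)D 3.

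Of the SLC7 carriers of cationic amino acids other than the light chains, only SLC7A1 passed the filter. The light chain SLC7A6, described above, also exchanges cationic amino acids and was tested but not called. SLC7A1, the arginine and lysine carrier CAT1 (chr13:29509410-29595688, minus strand), had 53.7, 53.8 and 52.6 CPM across control and 29.9, 26.6 and 28.97 CPM across 25(OH)D. The control libraries lay within a narrow range well above all 25(OH)D libraries, with means of 53.4 ± 0.631 and 28.5 ± 1.71 CPM (SD, n = 3). The log2 fold change was -0.91 (SE 0.06, edgeR adjusted p = 3.25e-08). SLC7A2, SLC7A4 and SLC7A14 had at most 6 counts in any library.

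The SLC38 genes, which include sodium-coupled carriers of glutamine and alanine, by contrast changed little. Of the 6 SLC38 genes tested, 1 was higher in the edgeR test (16.7%, against 17.3% of all genes tested). None was lower (against 16.5% of all genes tested) and 5 were not called. The groups did not overlap for 5 of the 6 (83.3%, against 45.7% of all genes tested). SLC38A1, the glutamine carrier SNAT1 (chr12:46183063-46270017, minus strand), had 268.9, 269.5 and 264.3 CPM in control and 290.2, 282.3 and 280.3 CPM in 25(OH)D. Its means were 267.6 ± 2.86 and 284.3 ± 5.26 CPM (SD, n = 3), a log2 fold change of 0.09 (SE 0.04) that was not called (edgeR adjusted p = 0.076). SLC38A2, SNAT2, which takes up alanine and glutamine and is a known ATF4 target (chr12:46358189-46372867, minus strand), had 117.0, 119.6 and 116.9 CPM in control. In 25(OH)D it had 105.0, 105.9 and 115.2 CPM, the last of them just under the control range. Its means were 117.8 ± 1.55 and 108.7 ± 5.66 CPM (SD, n = 3), with a log2 fold change of -0.12 (SE 0.05, edgeR adjusted p = 0.0689). It was called lower under 6 of the alternatives, among them the omission of 25(OH)D library 3 (adjusted p = 0.021) and scaling by library size alone (adjusted p = 0.0137).

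SLC38A10, a family member found inside the cell (chr17:81245000-81295547, minus strand), was the SLC38 gene called. It had 119.1, 124.6 and 126.5 CPM in control and 152.6, 155.0 and 146.9 CPM in 25(OH)D, with no overlap. The means were 123.4 ± 3.84 and 151.5 ± 4.13 CPM (SD, n = 3), and the log2 fold change was 0.30 (SE 0.04, edgeR adjusted p = 8.5e-05). Its exons share 610 of 7716 bases with RP11-455O6.8 on the other strand, and reads of the 2 genes cannot be told apart there. RP11-455O6.8 also rose, from a mean of 327.3 counts in control to 421.7 in 25(OH)D (log2 fold change 0.50, edgeR adjusted p = 0.000706). SLC38A6, which has no settled substrate, was at 7.31 and 8.65 CPM (means of 3 libraries, adjusted p = 0.0822). SLC38A7, a lysosomal glutamine and asparagine carrier, was at 8.10 and 6.96 CPM (adjusted p = 0.124), and SLC38A9, the lysosomal arginine sensor for mTORC1, at 1.91 and 2.26 CPM (adjusted p = 0.449).

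Of the proton-coupled carriers, SLC36A1 rose. SLC36A1, or PAT1, which moves small amino acids with protons out of lysosomes and across the cell surface (chr5:151437046-151492381, plus strand), had 3.43, 3.60 and 4.70 CPM across control and 7.31, 5.88 and 6.38 CPM across 25(OH)D. Every 25(OH)D library was above every control library, with means of 3.91 ± 0.688 and 6.52 ± 0.727 CPM (SD, n = 3). The log2 fold change was 0.74 (SE 0.15, edgeR adjusted p = 0.00154). SLC36A4, a proline and tryptophan carrier, was at 11.4 ± 0.589 and 11.7 ± 0.888 CPM (SD, n = 3) with overlapping groups (adjusted p = 0.772), and the sign of its difference changed with the scaling.

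Both SLC43 genes tested fell, and they carry different substrates. SLC43A3, which is known to carry purine nucleobases and not amino acids (chr11:57406954-57427580, minus strand), had 142.4, 137.1 and 135.4 CPM in control and 105.7, 98.7 and 98.6 CPM in 25(OH)D. The groups did not overlap, with means of 138.3 ± 3.67 and 101.0 ± 4.08 CPM (SD, n = 3), and the log2 fold change was -0.45 (SE 0.05, edgeR adjusted p = 2.15e-06). It shares 1349 of 4517 exon bases with RP11-872D17.8 on the same strand (log2 fold change -0.45), so the reads of these 2 genes are not separate measurements there. SLC43A2, or LAT4, which lets branched-chain amino acids and phenylalanine pass (chr17:1569267-1628886, minus strand), was low, at 3.55, 3.81 and 2.74 CPM in control and 2.53, 1.51 and 2.33 CPM in 25(OH)D. Its means were 3.37 ± 0.556 and 2.12 ± 0.543 CPM (SD, n = 3), with a log2 fold change of -0.67 (SE 0.22, edgeR adjusted p = 0.0268). This call was lost without control library 1 (adjusted p = 0.0723), without control library 2 (0.112), without 25(OH)D library 2 (0.123) and with limma on RPKM (0.0715 and 0.0796).

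In the SLC6 family, which couples transport to sodium and chloride, the creatine and glycine carriers rose. SLC6A8, the creatine carrier (chrX:153688099-153696593, plus strand), had 14.0, 15.0 and 16.2 CPM across control and 21.3, 21.8 and 24.6 CPM across 25(OH)D. The groups were clearly apart, with means of 15.1 ± 1.07 and 22.5 ± 1.79 CPM (SD, n = 3). The log2 fold change was 0.58 (SE 0.08, edgeR adjusted p = 8.05e-05), and 1.84% of its stretches of 100 transcript bases also occur in other genes, the pseudogene SLC6A10P among them. SLC6A9, the glycine carrier GlyT1, was 1.31-fold higher, at 21.2 ± 1.15 and 27.7 ± 1.13 CPM (SD, n = 3, edgeR adjusted p = 0.000606), and shares 404 exon bases with CCDC24 on the other strand. SLC6A6, the taurine carrier, was at 54.2 ± 1.36 and 58.4 ± 4.05 CPM (SD, n = 3) with overlapping groups (adjusted p = 0.183). SLC6A16, which has no settled substrate, was at 2.47 ± 0.195 and 2.04 ± 0.184 CPM (SD, n = 3, adjusted p = 0.287).

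The remaining 24 genes listed were too low to be tested, and their highest count in any library was 14. These were SLC1A2 and SLC1A6 among the glutamate carriers, the light chains SLC7A9, SLC7A10 and SLC7A13, the cationic carriers SLC7A2, SLC7A4 and SLC7A14, and SLC38A3, SLC38A5, SLC38A11, SLC36A2, SLC36A3 and SLC43A1. From the SLC6 family they were the carriers of glycine, proline and neutral amino acids SLC6A5, SLC6A17, SLC6A19 and SLC6A20, the GABA and betaine carriers SLC6A11, SLC6A12 and SLC6A13, and the noradrenaline, dopamine and serotonin carriers SLC6A2, SLC6A3 and SLC6A4. Of the 24, 11 had at most 3 counts in every library, and 3 counts are worth between 0.0733 and 0.0902 CPM here, so lower levels cannot be seen at this depth. The genes SLC7A3, SLC38A4, SLC38A8, SLC6A7, SLC6A14, SLC6A15 and SLC6A18 were not analysed here.

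Levels between genes were compared per length, by RPKM. In control the order was SLC1A5 (71.0), SLC43A3 (31.1), SLC3A2 (28.97), SLC38A1 (27.1), SLC38A2 (18.1), SLC38A10 (16.2), SLC1A7 (11.9) and SLC7A8 (11.8), and only SLC1A7 and SLC7A8 overlapped with each other in their libraries. In 25(OH)D the order began with SLC1A5 (77.7), SLC38A1, SLC43A3, SLC3A2, SLC38A10, SLC38A2 and SLC7A6, of which SLC3A2 and SLC38A10 overlapped. SLC7A8 went from place 8 to place 12 and SLC7A11 from place 10 to place 15, while SLC7A6 went from place 9 to place 7. Summed over the 51 genes, RPKM was 282.0, 274.4 and 267.6 across control and 242.1, 242.6 and 241.6 across 25(OH)D, with every 25(OH)D library lower. This sum is not of amino acid carriers alone. It includes SLC43A3, a purine nucleobase carrier, with means of 31.07 in control and 22.0 in 25(OH)D, and the heavy chain SLC3A2 (28.97 and 19.56). SLC1A7 also fell (11.85 and 1.395), and SLC1A5 went the other way (71.0 and 77.7). The small neutral exchangers took 27.9% of the sum in control and 34.7% in 25(OH)D, and the SLC38 genes took 23.5% and 27.4%. The SLC38 share includes SLC38A10, found inside the cell, at a mean of 16.2 RPKM in control and 19.3 RPKM in 25(OH)D. The light chains took 13.5% and 10.1%, and their heavy chains 10.8% and 8.28%. These sums and shares are a description with no test.

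**Figure D4:**
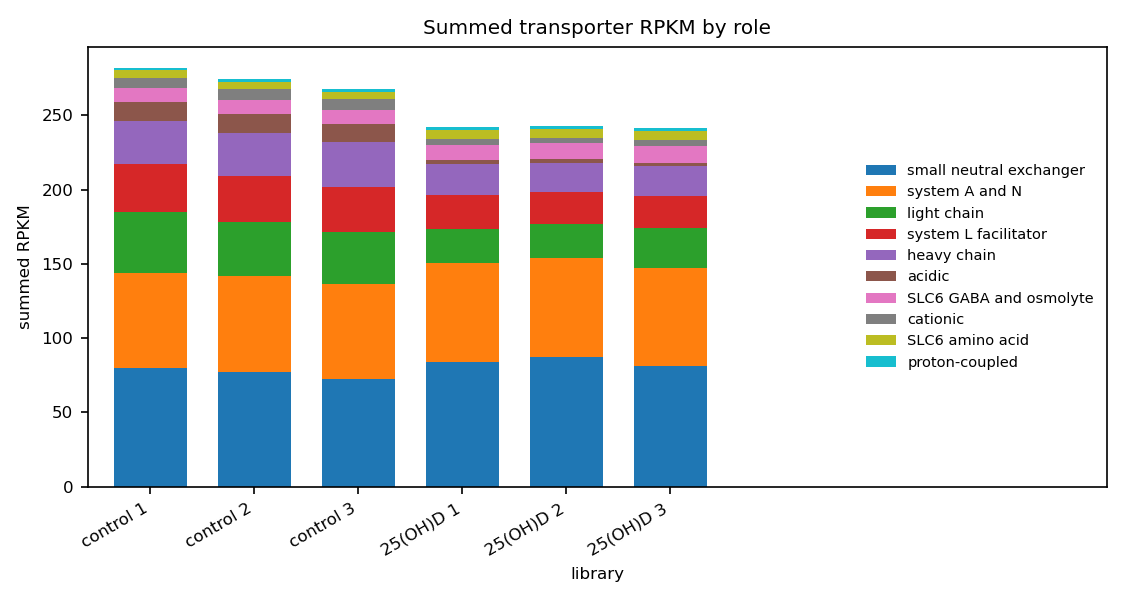
Summed RPKM (y axis, from 0) of the transporter genes by role, stacked, in each library (x axis), without the 3 monoamine carriers, whose sum is at most 0.0301. The control bars reach between 267.6 and 282.0 and the 25(OH)D bars about 242, and the acidic and light chain parts are smaller in 25(OH)D. The part labelled system L facilitator is almost wholly SLC43A3, known to carry purine nucleobases and not amino acids. SLC43A3 made up 31.07 of its mean 31.43 RPKM in control and 22.0 of 22.24 RPKM in 25(OH)D.

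Lists of genes that work with these carriers were examined in the same edgeR fit. Of 23 amino acid carriers in other families (mitochondrial, vesicular, lysosomal and peptide carriers), 16 were tested, 2 were higher (12.5%, against 17.3% of all genes tested), 1 was lower (6.25%, against 16.5%) and the median log2 fold change was 0.03. SFXN3, a mitochondrial serine carrier, had the smallest adjusted p among those higher (log2 fold change 0.39, SE 0.07, 0.000385), and SLC25A12, the mitochondrial aspartate and glutamate carrier, was the 1 lower (-0.41, SE 0.08, adjusted p = 0.00109). Of 34 genes that pass amino acid levels to mTORC1, all were tested, 4 were higher, 4 were lower (11.8% each way, below the shares of all genes) and the median was -0.03. FNIP2, a partner of folliculin, had the smallest p of the 4 higher genes (0.44, SE 0.07, adjusted p = 0.000223) and SESN2, the leucine sensor Sestrin2, that of the 4 lower ones (-0.84, SE 0.10, adjusted p = 1.03e-05).

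The genes of the ATF4 amino acid response moved mostly one way. Of 24, 22 were tested, 16 were lower (72.7%, against 16.5% of all genes tested), 2 were higher (9.09%, against 17.3%) and 4 were not called, with a median log2 fold change of -0.67, against -0.01 over all genes tested. STC2, the secreted glycoprotein stanniocalcin 2, had the smallest p among the lower genes, at 30.5 ± 1.31 CPM in control and 8.63 ± 0.0638 CPM in 25(OH)D (SD, n = 3, log2 fold change -1.82, SE 0.07, edgeR adjusted p = 1.4e-10). EIF2AK4, the kinase GCN2 that senses uncharged tRNA, led the higher ones, at 150.5 ± 3.11 and 211.8 ± 6.001 CPM (SD, n = 3, log2 fold change 0.49, SE 0.04, edgeR adjusted p = 2.71e-07). ATF4 itself, 1 of the 16 lower genes and named after its value was seen, was at 403.5 ± 22.5 and 240.6 ± 8.14 CPM (SD, n = 3, log2 fold change -0.75, SE 0.05, edgeR adjusted p = 1.14e-08). Some carriers known as ATF4 targets were picked without a set rule. Of these, SLC7A11, SLC3A2 and SLC7A1 were lower, SLC7A5 and SLC38A2 were not called, and SLC1A4 and SLC1A5 were higher. The choice is not a full list of such targets. Other called carriers stand outside it, among them SLC6A9, which was higher, and SLC7A8, which was lower. SESN2 stands in both this list and that of mTORC1.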

How the data were processed

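The authors deposited a table of raw counts per gene, with no normalization, and a table of RPKM values, which equal the count divided by gene length and by library total (largest relative difference 2.23e-13). The submitters' processing notes name Trimmomatic 0.36, featureCounts, Subread 1.5.1, edgeR 3.12.1 and GRCh38. The labels describe a stranded library kit, and the strand setting of the counting is not given in the sources used here. Columns were matched to samples by the group code and replicate number in their names.

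Counts were tested in R 4.3.3 with edgeR 4.0.16 (TMM, low-count filter with a minimum count of 10, quasi-likelihood test without covariates, Benjamini-Hochberg over 18183 genes). The test was checked on simulated data. CPM values use TMM-scaled library sizes. Ratios of RPKM were tested by exact permutation of the libraries (two-sided). Alternatives were DESeq2 1.42.0, limma 3.58.1 on log2(RPKM + 1) and log2(RPKM + 0.1), other scalings and filters, the replicate number as a block, the omission of each library in turn and of genes that share exon bases. The setting without control library 1 and 25(OH)D library 3 was chosen after seeing the data. Exon positions were those given in the count table, and the transcripts used for shared stretches were those of GENCODE 29.

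Values per library are given for genes called with an absolute log2 fold change of at least 0.5, for the 8 with the highest mean RPKM and for 6 fixed by name, 17 in all. From each list of related genes, the called gene with the smallest p in each direction is named. The families and the lists of related genes, that of the ATF4 response included, were chosen with earlier results of these data known, so their counts are no independent support for a direction. Members were then taken by name. A marker gene and a family member are not reported here.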

Additional observations from a re-analysis of the deposited data

How the results depend on the processing

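Of the 27 genes tested, 22 kept their side of the threshold under each of the alternatives that could be run for them, and 11 of the 14 called genes stayed called. The exceptions were SLC1A4, SLC1A5 and SLC43A2. Among the 15 tested genes that share no exon bases with another gene, 3 were higher, 4 were lower and 1 was lower at the study's limits, counts that are smaller by construction. With each library left out in turn, between 7 and 8 were higher, between 6 and 8 lower, between 0 and 1 higher at the study's limits (SLC1A1, without control library 1 or 25(OH)D library 1 or 2) and between 3 and 4 lower at them. With limma on RPKM 5 were higher and 7 lower, and with DESeq2 7 and 7. The sign of SLC7A5 changed, with log2 fold changes between -0.44 and 0.23 as libraries were left out. That of SLC36A4 changed to -0.00018 with upper-quartile scaling, -0.0020 with library size alone, -0.0017 and -0.0036 with limma at pseudocounts of 1 and 0.1, and -0.034 without control library 1 and 25(OH)D library 3, and as libraries were left out it was between 0.0065 and 0.11. The cause was not tested. The median of all genes shifted by at most 0.044 on the log2 scale under another scaling. Depth limits the 24 genes below the filter.

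The labels number the replicates in both groups, but samples with the same number did not deviate together (correlations of -0.118, 0.00725 and -0.0772). With 3 libraries per group, these values cannot tell whether samples with the same number were cultured or processed together. With a replicate block, 7 genes were higher, 7 lower and 3 lower at the study's limits.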

Other observations

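The high values of SLC7A5 in control library 1 and 25(OH)D library 3 were shared by a small set of genes. Of 14899 genes with a mean of at least 1 CPM, 45 (0.302%) had both of these libraries at least 1.5-fold above the other libraries of their group, and SLC7A5 was the only amino acid transporter among them. The same count was not made for other pairs of libraries, so it is not known whether this number is unusual. The set holds RNF220, a ubiquitin ligase, at 96.5, 43.02 and 44.1 CPM in the control libraries and 39.3, 37.7 and 116.5 CPM in the 25(OH)D libraries. It also holds SLC25A33, a mitochondrial pyrimidine nucleotide carrier, at 18.2, 7.40 and 5.32 CPM and 6.60, 5.62 and 24.0 CPM. The pattern was looked for after the values of SLC7A5 had been seen, and these 2 genes were chosen in the same way.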
